A study of Mus musculus with 2 samples.

Results

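Retinoic acid signalling was followed here through 9 genes, 9 of the 31053 genes counted in these libraries, chosen by name from the pathway, with earlier results of these data known. They comprised the 3 enzymes that make retinoic acid (Aldh1a1, Aldh1a2 and Aldh1a3), a carrier and its receptor (Rbp4 and Stra6), 2 cellular binding proteins (Crabp1 and Crabp2) and 2 enzymes that break retinoic acid down (Cyp26a1 and Cyp26b1). The data were single cell RNA-seq libraries of intact mouse hearts at postnatal day (P) 1 and P7. The study set out to compare pathways between these ages, between which the neonatal mouse heart is known to lose its capacity to regenerate. Each age was 1 library of live (7-AAD negative) cells sorted from 3 hearts of one litter that had been pooled, and the labels give no strain, genotype or treatment. Because there was no replicate heart or litter at either age, the ages could not be compared by a test, and every interval below is a 95% interval that covers counting error only.

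Retinol travels in blood bound to RBP4 and can enter cells through STRA6. Inside cells it is oxidised to retinaldehyde and then, by the retinaldehyde dehydrogenases of the ALDH1A family, to retinoic acid, a ligand of the nuclear receptors RAR and RXR. CRABP proteins bind retinoic acid in the cytoplasm and CYP26 enzymes oxidise it, so that tissues with synthesis and tissues with breakdown can lie side by side. In the heart ALDH1A2 in the epicardium is a known embryonic source of retinoic acid.

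After filtering, 4991 cells with 59026295 unique molecular identifiers (UMIs, each counting 1 captured mRNA molecule) remained at P1 and 8511 cells with 97432007 UMIs at P7, with medians of 10875 and 10104 UMIs per cell. The libraries shared 13 barcodes among these cells. Cells were placed in 6 classes by marker UMIs: endothelium by Cdh5 (1636 cells at P1, 3263 at P7), fibroblasts by Pdgfra (896 and 1915), valve-type cells by Fmod with Scx (224 and 115), Gdf10 fibroblasts by Gdf10 (153 and 163), smooth muscle by Myh11 (157 and 408) and epicardium by Upk3b (50 and 30). Every marker listed for a class was detected in it and was more than 2-fold above all other cells in both libraries. The lists included the gate genes Fmod, Scx, Gdf10 and Myh11, whose enrichment was set by the gates. The P1 and P7 libraries differed in more than age. Digestion took 20 min at P1 and 45 min at P7, and Xist had 57336 UMIs at P1 and 12 at P7, against 2 and 18039 for 4 Y-linked genes, so that age, sex and digestion cannot be told apart. Cells with RNA of lung genes (lung-like cells) numbered 447 at P1 and 232 at P7. Of these, 65 at P1 and 0 at P7 had at least 2 of 7 alveolar genes. The others were called on as little as 1 UMI of Hoxa5, Foxf1, Tbx4 or Nkx2-1. In the epicardium Nkx2-1 was at 0 CPM at both ages, and the alveolar genes were at 0 CPM at P7. They made up 26 of the 50 epicardial cells at P1 and 5 of the 30 at P7, and the values without them are given where they changed a result. As a measure of free RNA, levels were read against leukocytes (Ptprc, 320 and 463 cells), whose median depth was 7679 UMIs at P1 and 6391 at P7. Sums are given as UMIs per 1000000 UMIs of the class (CPM). Fewer cells with a transcript and less transcript per cell cannot be told apart in such sums, so the share of cells with a UMI is given beside them.

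Aldh1a2 and the Cyp26 genes were highest in different classes of heart cell. Aldh1a2 was highest in fibroblasts and the epicardium, Cyp26a1 UMIs lay mostly in valve-type cells, and Cyp26b1 was found mainly in valve-type and endothelial cells. For these 3 genes this held at P1 and at P7. The plot of levels by class shows the pattern for each gene, and the plot of shares shows which classes held the UMIs.

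**Figure D1:**
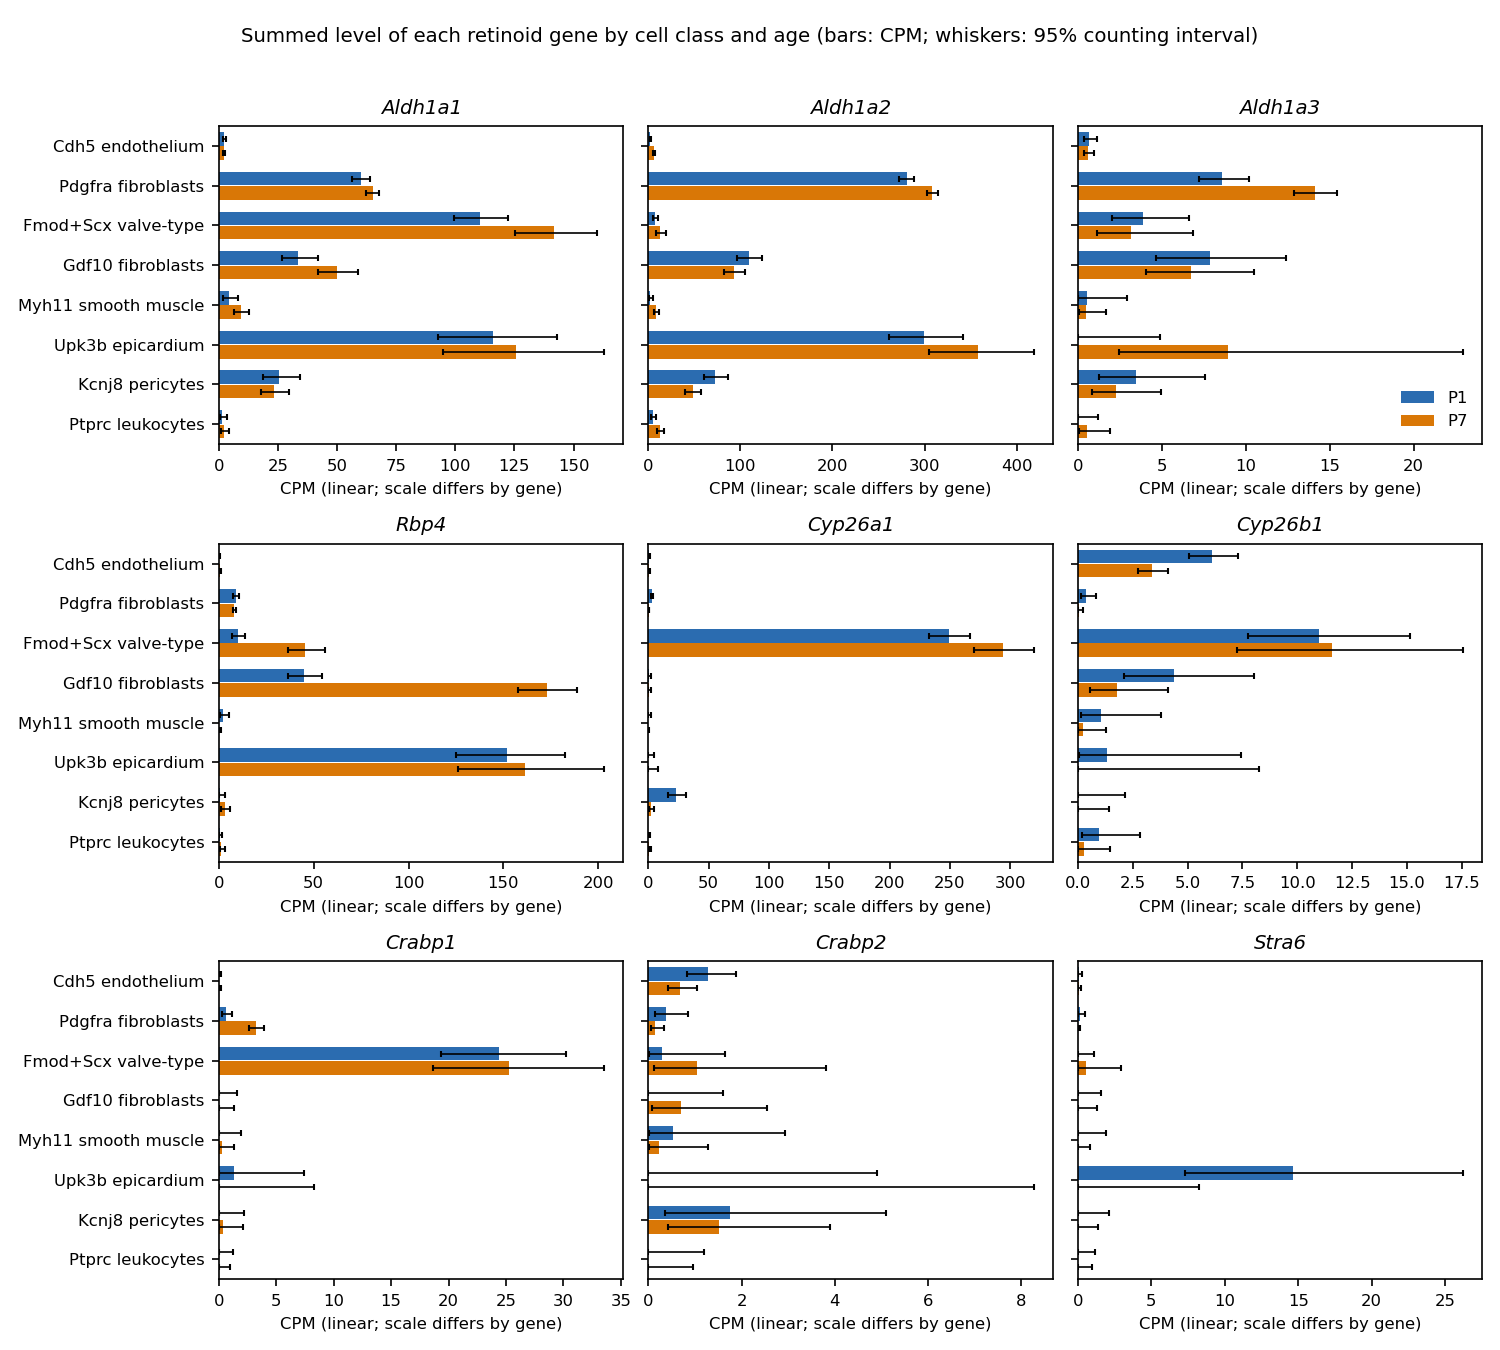
Level of each of the 9 retinoid genes by cell class at P1 (blue) and P7 (orange). Bars are summed UMIs of the class in CPM (linear, with a scale of its own for each gene) and whiskers are 95% counting intervals of 1 library per age. Cyp26a1 stands at 249 CPM at P1 and 294 CPM at P7 in valve-type cells, and Aldh1a2 at 281 and 309 CPM in fibroblasts.

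**Figure D2:**
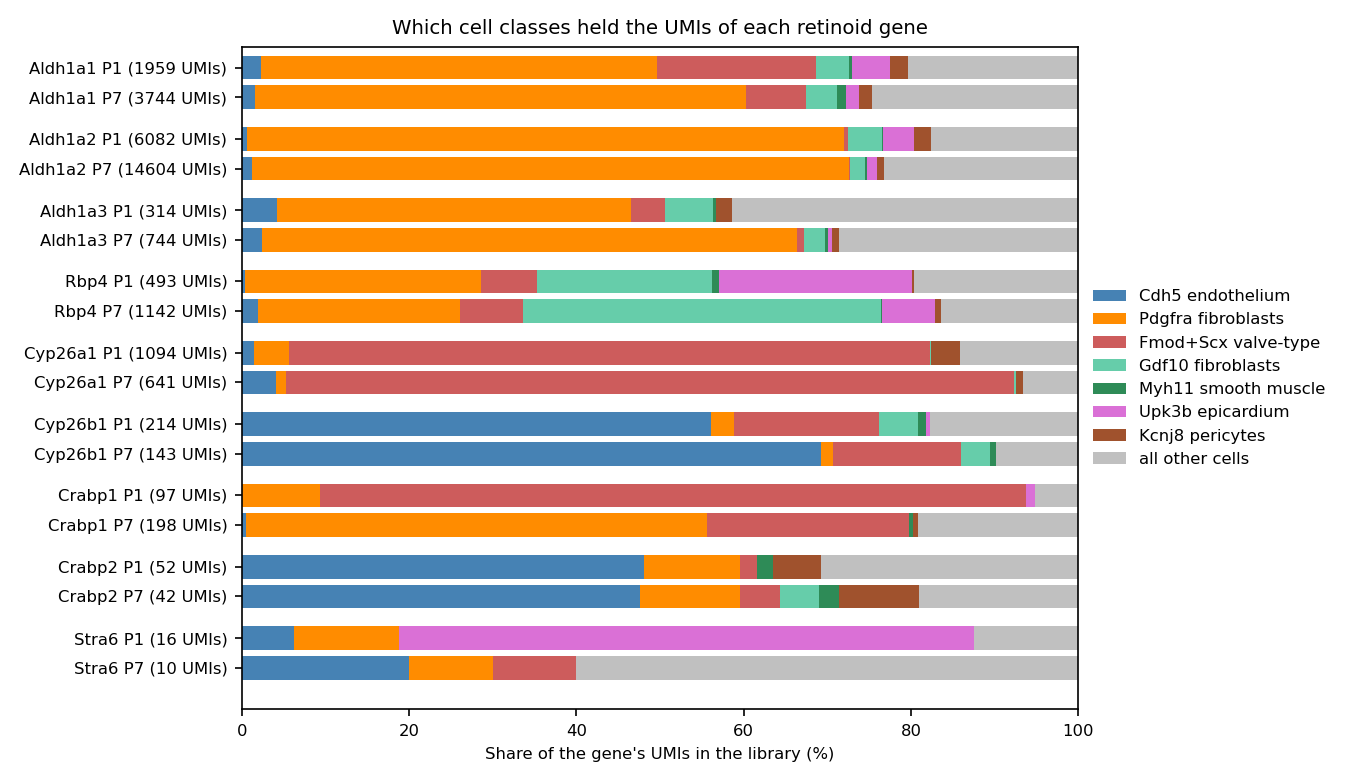
Share of the UMIs of each gene that lay in each cell class, in percent of all UMIs of that gene in the P1 or the P7 library, with the number of UMIs beside each bar. Fibroblasts held 71.5% of Aldh1a2 UMIs at P1 and 71.4% at P7, whereas valve-type cells held 76.7% and 87.1% of Cyp26a1 UMIs.

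Aldh1a2 (ENSMUSG00000013584, chromosome 9, 71215789 to 71296243, plus strand of GRCm38) encodes the main retinoic acid producing enzyme of the embryonic heart. It had 6082 UMIs at P1 and 14604 at P7. In the epicardium its level was 299.6 CPM (262 to 341) at P1 and 358 CPM (305 to 418) at P7, and UMIs of it were found in 92.0% (80.8 to 97.8) and 96.7% (82.8 to 99.9) of cells. In fibroblasts the levels were 281 CPM (272 to 289) and 309 CPM (303 to 315), with UMIs in 76.9% and 87.0% of cells. The intervals of these 2 classes overlapped at each age, so their order was not resolved. Gdf10 fibroblasts followed with 109 CPM (95.9 to 123) at P1 and 92.6 CPM (81.7 to 104.5) at P7, below both. Pericytes, gated by Kcnj8, had 72.6 and 48.3 CPM. In valve-type cells Aldh1a2 was at 7.42 CPM (4.80 to 11.0) and 12.6 CPM (8.10 to 18.8). These levels lay within the intervals of leukocytes, at 5.50 CPM (3.21 to 8.81) at P1 and 12.9 CPM (9.51 to 17.0) at P7. Smooth muscle (2.10 and 8.74 CPM) and endothelium (1.83 and 6.01 CPM) had lower values than leukocytes at both ages. Leukocytes were thus not the lowest class for this gene, and whether the valve-type level was background was not tested. When cells were thinned to 2000 UMIs each, Aldh1a2 was found in 48.0% of epicardial cells at P1 and 63.3% at P7, in 33.9% and 39.1% of fibroblasts, and in 0.656% and 2.11% of leukocytes.

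Fibroblasts were not uniform for Aldh1a2. Those with at least 2 UMIs of Col26a1 had 356 CPM (344 to 368) at P1 and 364 CPM (355 to 374) at P7. Those with Pi16, a marker of adventitial fibroblasts, had 179 CPM (159 to 202) and 241 CPM (235 to 248). Pi16 cells numbered 72 of 896 fibroblasts at P1 and 1101 of 1915 at P7, so the makeup of the fibroblast class differed between the ages. In the cells with neither gene the level was 164 CPM (153 to 175) at P1 and 351 CPM (335 to 366) at P7. The Col26a1 cells were thus the highest at P1, whereas at P7 they overlapped with the cells of neither gene. A cell with both genes was counted in both groups.

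Aldh1a1 (ENSMUSG00000053279, chromosome 19, 20492715 to 20643465, plus strand), a cytosolic retinaldehyde dehydrogenase, was found in the same classes as Aldh1a2 and in valve-type cells besides. Valve-type cells had 110 CPM (99.5 to 122) at P1 and 142 CPM (125 to 159.7) at P7, with UMIs in 60.7% and 73.9% of cells. The epicardium had 116 CPM (92.8 to 143) and 125 CPM (94.7 to 163), and did not differ from valve-type cells beyond the intervals while lung-like cells were included. Fibroblasts were lower, at 59.9 CPM (56.1 to 63.9) and 65.0 CPM (62.3 to 67.8), and Gdf10 fibroblasts lower again, at 33.6 and 49.8 CPM. Endothelium was at 2.29 CPM, with 24 of 45 UMIs in 1 cell, and at 2.04 CPM, against 1.30 and 2.10 CPM in leukocytes. Valve-type cells therefore held Aldh1a1 above the leukocyte level but not Aldh1a2. Aldh1a1 has a near-identical neighbour, Aldh1a7, 49.5 kb away on the other strand, and reads of the pair may have been divided between them in counting. Aldh1a7 itself had 127 UMIs at P1 and 33 at P7, of which 49 and 15 were in valve-type cells. Aldh1a1, Aldh1a2 and Stra6 also overlap genes annotated on the other strand, and Stra6 overlaps Gm16131 on its own strand as well. Whether the counting used strand is not given in the sources used here, and the effect of these overlaps on the UMIs was not tested.

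Aldh1a3 (ENSMUSG00000015134, chromosome 7, 66390890 to 66427517, minus strand), the third enzyme of this step, had 314 UMIs at P1 and 744 at P7. Fibroblasts had 8.58 CPM (7.19 to 10.2) at P1 and 14.1 CPM (12.9 to 15.4) at P7, and held 42.4% and 64.0% of the UMIs. The epicardium had 0 UMIs at P1, which allows a level of up to 3.99 CPM, and 4 UMIs at P7. At P1 a single cell outside all gates held 64 of the 314 UMIs. Without the cell with the most UMIs in each library, an alternative added after the values were seen, the log2 ratio of P1 over P7 in whole libraries went from -0.52 to -0.80. In fibroblasts with Pi16 the level was 17.5 CPM (11.6 to 25.5) at P1 and 17.6 CPM (15.8 to 19.4) at P7.

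Aldh1a1 and Aldh1a2 were found together in thinned fibroblasts about as often as the product of their shares gives, and somewhat more often with all UMIs. Among fibroblasts thinned to 2000 UMIs, 36 of 882 cells at P1 had both where the product gives 32.9, and 89 of 1909 at P7 where it gives 93.1. With all UMIs, where cells differ in depth, 387 of 896 fibroblasts at P1 had both where the product gives 354.5. At P7 it was 1018 of 1915 where the product gives 974.1. In valve-type cells, with all UMIs, 73 of 224 cells at P1 had both Aldh1a1 and Cyp26a1 where the product gives 68.0, and 44 of 115 at P7 where it gives 45.8. A gene of synthesis and one of breakdown were thus detected in the same valve-type cells.

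Rbp4 (ENSMUSG00000024990, chromosome 19, 38116629 to 38125281, minus strand) encodes the secreted carrier of retinol. It was found in the epicardium at 152 CPM (125 to 182) at P1 and 161 CPM (126 to 203) at P7, and in Gdf10 fibroblasts at 44.9 CPM (36.7 to 54.5) and 173 CPM (158 to 189). The intervals of these classes stood apart at P1, though not without lung-like cells, and overlapped at P7. Valve-type cells had 9.80 CPM (6.74 to 13.8) at P1 and 45.3 CPM (36.2 to 56.0) at P7, and fibroblasts 8.97 and 8.17 CPM. In leukocytes Rbp4 was at 0.324 and 1.31 CPM. Rbp4 UMIs were found in 30.1% (22.9 to 38.0) of Gdf10 fibroblasts at P1 and 65.0% (57.2 to 72.3) at P7, and in 8.50% and 25.2% of the thinned cells, against 0.328% and 0.234% of thinned leukocytes.

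The epicardial values of Rbp4 and Aldh1a1 depended on the lung-like cells. Of the 114 Rbp4 UMIs of the epicardial class at P1, 25 were in the 24 cells without lung genes. Those cells had 73.6 CPM (47.6 to 109) of Rbp4 at P1 and 187 CPM (145 to 238) at P7, a log2 ratio of -1.33 (-2.07 to -0.66), where it was -0.09 (-0.53 to 0.36) with all gated cells. At P1 their Rbp4 interval overlapped with that of Gdf10 fibroblasts without lung-like cells (43.3 CPM, 34.9 to 53.1). Aldh1a1 differed the other way, with 224 CPM (176 to 280.0) at P1 and 119 CPM (85.7 to 161) at P7, a ratio of 0.90 (0.35 to 1.49) in place of -0.12 (-0.62 to 0.40). Its P1 level was then above that of valve-type cells without lung-like cells (113 CPM, 102 to 125). Aldh1a2 stayed at 327 CPM (269 to 393) and 374 CPM (313 to 443). Whether the lung-like cells came from tissue other than the heart was not tested.

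**Figure D3:**
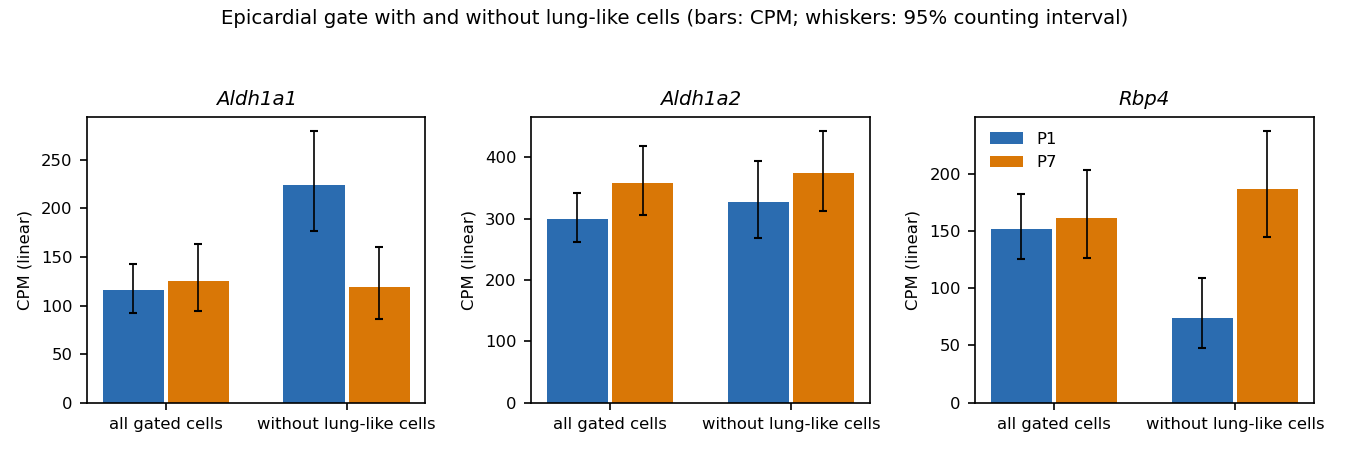
Levels of Aldh1a1, Aldh1a2 and Rbp4 in the epicardial class at P1 (blue) and P7 (orange), with all gated cells (50 and 30) and without lung-like cells (24 and 25). Bars are CPM on a linear axis from 0 and whiskers are 95% counting intervals. Without lung-like cells Aldh1a1 stands at 224 and 119 CPM and Rbp4 at 73.6 and 187 CPM, whereas with all gated cells the intervals of both ages overlap for both genes.

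Stra6 (ENSMUSG00000032327, chromosome 9, 58063788 to 58153996, plus strand), the membrane receptor that takes up retinol from RBP4, was nearly undetected, with 16 UMIs at P1 and 10 at P7. At P1 the epicardium held 11 of the 16 UMIs, or 14.6 CPM (7.31 to 26.2), in 4 of its 50 cells, and 6 of them lay in 1 cell. Of these 11 UMIs, 7 were in the cells without lung genes. At P7 the epicardium had 0 UMIs, which allows up to 6.72 CPM, so a level at P7 up to about that size was not detectable at this depth.

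Crabp1 (ENSMUSG00000032291, chromosome 9, 54764748 to 54773110, plus strand), a cytoplasmic retinoic acid binding protein, had 97 UMIs at P1 and 198 at P7. Its level in valve-type cells was 24.3 CPM (19.4 to 30.2) at P1 and 25.3 CPM (18.6 to 33.5) at P7, in 11.2% and 14.8% of cells. No UMI was found in Gdf10 fibroblasts or leukocytes at either age, which allows up to 1.31 CPM in Gdf10 fibroblasts at P1. Fibroblasts had 9 UMIs at P1 (0.581 CPM, 0.266 to 1.10) and 109 at P7 (3.23 CPM, 2.65 to 3.89). Of those 109 UMIs, 106 were in cells with Pi16. At P7 fibroblasts held 55.1% of the UMIs of Crabp1 and valve-type cells 24.2%, whereas at P1 valve-type cells held 84.5%.

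Crabp2 (ENSMUSG00000004885, chromosome 3, 87948666 to 87953376, plus strand), which delivers retinoic acid to its nuclear receptors, had 52 UMIs at P1 and 42 at P7, of which 48.1% and 47.6% were in endothelium, at 1.27 CPM (0.825 to 1.88) and 0.679 CPM (0.415 to 1.05). The endothelial UMIs lay in very few cells, 4 of 1636 at P1 and 9 of 3263 at P7. Crabp2 had 0 UMIs in leukocytes and in the epicardium at both ages.

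Cyp26a1 (ENSMUSG00000024987, chromosome 19, 37697798 to 37701536, plus strand) encodes a retinoic acid hydroxylase whose gene is itself a textbook target of retinoic acid. Its promoter is shown because it held the response element that the binding of RAR with RXR is known for, a pair of direct repeats. Pairs of half-sites of 6 bases (AGGTCA, its variant AGTTCA, the further variant GGGTCA and the variant GGTTCA) in the same direction with 5 bases between them (DR5) or 2 (DR2) were sought on both strands of RefSeq promoters of GRCm38.p6, from 250 bases before to 50 after each start. Promoters of 7 of the 9 genes were in that table, 12 in all. Of these 12 promoters 1 held a DR5 and 0 a DR2, against 0.097% and 0.268% of all 32851 promoters. The match was on the minus strand of the Cyp26a1 promoter and ended 15 bases before the RefSeq start:

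Cyp26a1 DR5, read on the minus strand: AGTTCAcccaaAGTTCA

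In the stretches below, which stop before the first base annotated as transcribed, capitals mark both half-sites, here as they read on the strand of the gene. They cover chr19:37697558-37697797 on the plus strand for Cyp26a1 and chr6:84593909-84594060 on the minus strand for Cyp26b1, shown for comparison, in whose promoter these letters were not found:

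Cyp26a1: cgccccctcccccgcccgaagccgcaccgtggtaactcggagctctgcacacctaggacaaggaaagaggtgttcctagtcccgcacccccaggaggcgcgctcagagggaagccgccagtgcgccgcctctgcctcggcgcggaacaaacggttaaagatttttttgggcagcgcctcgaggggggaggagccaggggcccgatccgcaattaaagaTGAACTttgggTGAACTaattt

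Cyp26b1: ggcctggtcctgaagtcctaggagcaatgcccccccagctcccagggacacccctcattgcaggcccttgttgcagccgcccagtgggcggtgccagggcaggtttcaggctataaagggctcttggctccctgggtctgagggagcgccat

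Most of the UMIs of Cyp26a1 came from a small class. Cyp26a1 had 839 of its 1094 UMIs at P1 and 558 of 641 at P7 in valve-type cells, at 249 CPM (233 to 267) and 294 CPM (270.1 to 319). With all UMIs, it was found in 112 of 224 valve-type cells at P1 (interval of the share 43.3 to 56.7%) and in 53.9% (44.4 to 63.2) at P7. Leukocytes, also with all UMIs, had it in 0 of 320 cells at P1 and in 0.432% at P7. The 0 at P1 allows a share of leukocytes with a UMI of up to 0.938%. Of the thinned valve-type cells, 25.8% at P1 and 28.9% at P7 had a UMI of Cyp26a1. Of the other gated classes the highest at P1 was pericytes with 22.7 CPM (16.1 to 31.0), where 1 cell held 30 of 39 UMIs. Fibroblasts had 2.90 CPM (2.12 to 3.89) at P1 and 0.237 CPM (0.102 to 0.467) at P7. Epicardium and smooth muscle had no UMI of Cyp26a1 at either age. In the epicardium 0 UMIs allow up to 3.99 CPM at P1 and 6.72 CPM at P7.

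The transcript was unevenly spread among valve-type cells, and the highest cell held 51 UMIs at P1 and 44 at P7. Over each whole library, cells of other classes included, the 26 cells with the most Cyp26a1 held 50% of its UMIs at P1 and 14 cells did so at P7. Over the 12 points given by the 6 classes in both libraries, the genes with the pattern most like Cyp26a1 were Ucma (r = 0.99), a secreted protein of cartilage, Npy (0.97), the neuropeptide Y gene, and Chad (0.96), a cartilage matrix protein. These r values of log2(CPM + 1) describe 12 points that share libraries and classes, picked as the highest of 13200 genes.

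Cyp26b1 (ENSMUSG00000063415, chromosome 6, 84571414 to 84593908, minus strand), the second retinoic acid hydroxylase, was at 11.0 CPM (7.73 to 15.1) in valve-type cells at P1 and 11.6 CPM (7.26 to 17.5) at P7. Endothelium had 6.12 CPM (5.07 to 7.31) at P1 and 3.36 CPM (2.73 to 4.09) at P7, and, being the larger class, held 56.1% and 69.2% of the UMIs. Gdf10 fibroblasts had 4.36 CPM at P1 and 1.77 CPM at P7, from 10 and 5 UMIs, with intervals that overlapped with those of endothelium. Without lung-like cells endothelium had 3.92 CPM (3.06 to 4.96) at P1 and 3.32 CPM (2.68 to 4.07) at P7. It then held 70 of 153 UMIs at P1 and 93 of 131 at P7. Only 3.36% of endothelial cells at P1 and 1.35% at P7 had a UMI, against 0.938% and 0.216% of leukocytes. The intervals of the levels in valve-type cells and endothelium were apart at each age.

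A small group of endothelial cells held many of the endothelial UMIs of Cyp26b1 and of Crabp2, and whether single cells held both genes was not counted. Cells with Wnt9b, a ligand known from the endothelium of heart valves, were separated after Wnt9b had been seen among the leading genes of the cells with Cyp26b1. They numbered 23 of 1636 endothelial cells at P1 and 19 of 3263 at P7, or 1.41% and 0.582%. These cells held 30 of the 120 endothelial Cyp26b1 UMIs at P1 and 45 of 99 at P7, at 69.2 CPM (46.7 to 98.8) and 148 CPM (108 to 197), against 4.69 CPM (3.77 to 5.77) and 1.85 CPM (1.39 to 2.42) in the remaining endothelium. They also held 24 of 25 endothelial Crabp2 UMIs at P1, all in 3 cells, and 9 of 20 at P7. UMIs of Cyp26b1 were found in 8 of the 23 cells at P1 and 6 of the 19 at P7. The median depth of the Wnt9b cells was 16508 UMIs at P1 and 12792 at P7, against 10739 and 7898 in the others, and 1 and 2 of them were lung-like. Since the group was chosen on these cells, the difference is a description. Endocardial cells, gated by Npr3, had 3.38 CPM (1.69 to 6.05) of Cyp26b1 at P1 and 3.27 CPM (0.674 to 9.55) at P7, no more than endothelium as a whole. Crabp2 had 0 UMIs in them at P1 and 7 of the 20 endothelial UMIs at P7, in 3 of 69 cells, at 7.62 CPM (3.06 to 15.7), above endothelium as a whole.

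**Figure D4:**
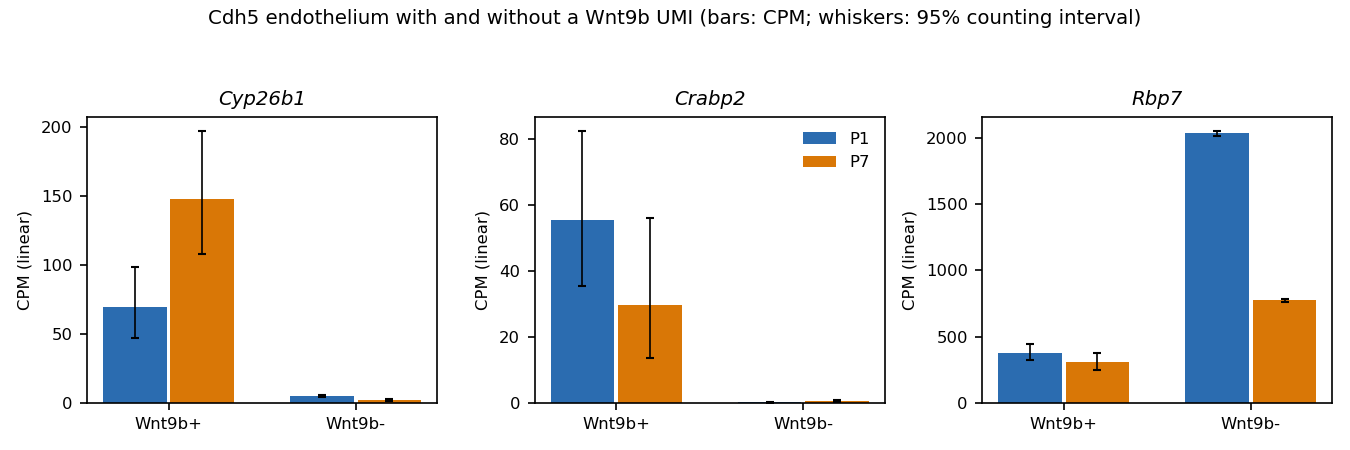
Levels of Cyp26b1, Crabp2 and Rbp7 in Cdh5 endothelium with (Wnt9b+, 23 cells at P1 and 19 at P7) and without (Wnt9b-, 1613 and 3244 cells) a UMI of Wnt9b, at P1 (blue) and P7 (orange). Bars are CPM on linear axes from 0 and whiskers are 95% counting intervals. Cyp26b1 stands at 69.2 and 148 CPM with Wnt9b and 4.69 and 1.85 CPM without, whereas Rbp7 stands at 379 and 305 CPM with Wnt9b and 2038 and 773 CPM without. Wnt9b was chosen after it was seen among the leading genes of the cells with Cyp26b1, so the difference in Cyp26b1 is a description.

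Between the ages, 4 of the 9 genes were past 2-fold over whole libraries, all of them higher at P1: Cyp26a1, Cyp26b1, Crabp2 and Stra6. Over all 16552 genes with at least 20 UMIs in both libraries together, 12.9% were past 2-fold, 8.88% higher at P1 and 4.07% higher at P7. The median log2 ratio of P1 over P7 (0.5 counts added to each sum) was -0.21 over the 9 genes and 0.0041 over all genes. None of the 3 synthesis genes was past 2-fold. Aldh1a1 had 33.2 CPM at P1 and 38.4 CPM at P7, a log2 ratio of -0.21 (-0.29 to -0.13). Aldh1a2 had 103 and 149.9 CPM, a ratio of -0.54 (-0.58 to -0.50).

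The breakdown genes were higher at P1 in the whole library, and so was the share of valve-type cells. Cyp26a1 had 18.5 CPM at P1 and 6.58 CPM at P7, a log2 ratio of 1.49 (1.35 to 1.64), yet within valve-type cells the ratio was -0.24 (-0.40 to -0.082). With gates of at least 3 UMIs, its levels in valve-type cells were nearly equal, at 356 CPM at P1 and 363 CPM at P7. Valve-type cells were 4.49% of cells at P1 and 1.35% at P7. When each class of the P1 library was weighted by its share of UMIs at P7, an alternative added after the values were seen, the ratio over whole libraries became 0.57 for Cyp26a1, 0.72 for Stra6, 1.02 for Crabp2 and 1.11 for Cyp26b1, so that 2 of the 4 genes remained past 2-fold. Digestion time differed with age, and its part in the share of valve-type cells was not tested. Cyp26b1 had 3.63 and 1.47 CPM in whole libraries, a ratio of 1.30 (0.99 to 1.62), and 0.86 (0.47 to 1.26) within endothelium, where it was 0.24 without lung-like cells. In whole libraries without lung-like cells it was 1.02. Crabp2 and Stra6 rested on few UMIs, with ratios of 1.03 (0.42 to 1.65) and 1.38 (0.17 to 2.70). Without lung-like cells the Stra6 ratio was 1.05, from 12 and 10 UMIs, and its interval (-0.27 to 2.43) included 0. The Crabp2 ratio was 0.69 without the cell with the most UMIs in each library and 0.83 without lung-like cells, both under 2-fold.

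**Figure D5:**
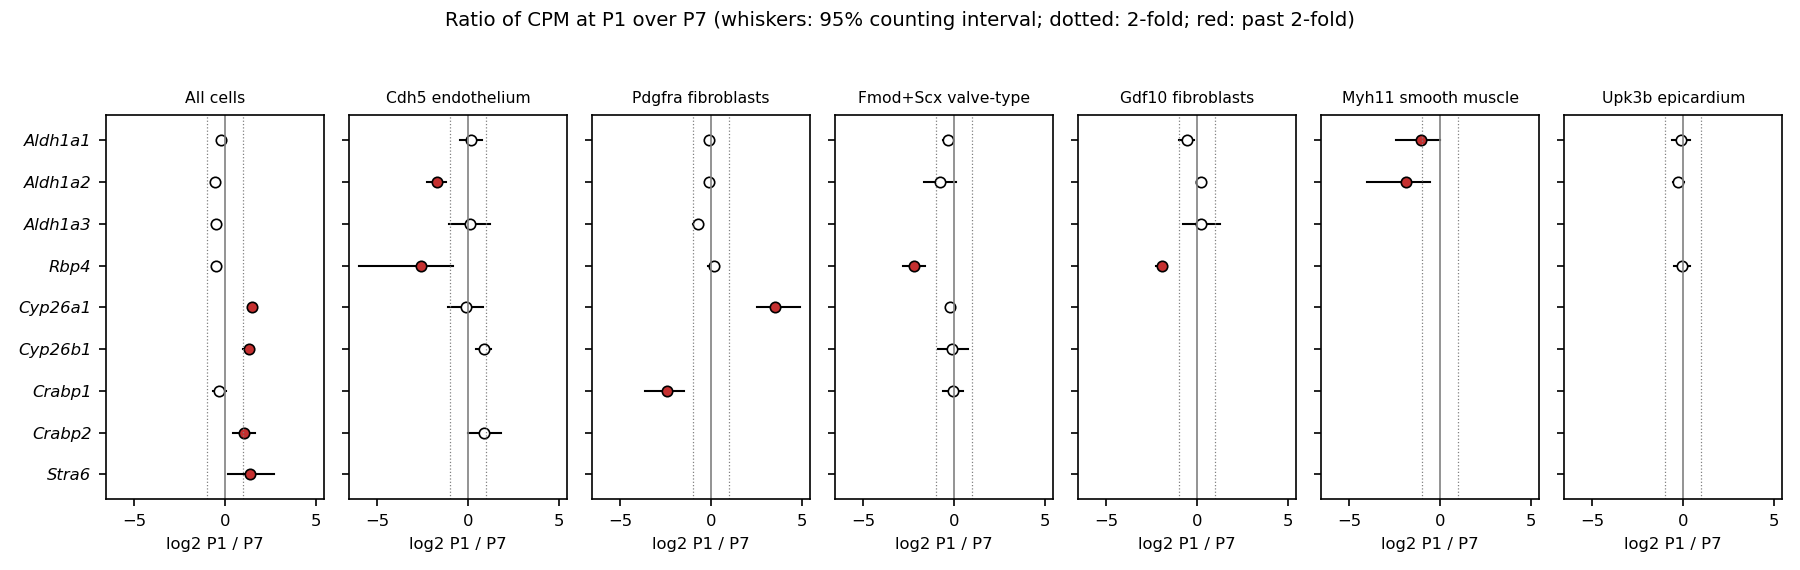
Ratio of the level at P1 over that at P7 for each of the 9 genes in all cells and in each class, on the log2 scale, for genes with at least 20 UMIs in both libraries together. Points are ratios with 0.5 counts added, whiskers are 95% counting intervals, dotted lines mark 2-fold and red points lie past it. Cyp26a1 lies at 1.49 in all cells and at -0.24 in valve-type cells, whereas Rbp4 lies at -1.94 in Gdf10 fibroblasts and -2.20 in valve-type cells.

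Within the 6 classes, 8 of 28 pairs of gene and class with enough UMIs were past 2-fold. In valve-type cells it was 1 of 6 genes, against 7.12% of all genes of that class, and in Gdf10 fibroblasts 1 of 4, against 8.00%. Both were Rbp4, higher at P7, with log2 ratios of -2.20 (-2.83 to -1.61) and -1.94 (-2.26 to -1.63). These ratios ranged from -2.48 to -1.63 in valve-type cells and from -2.06 to -1.92 in Gdf10 fibroblasts over the alternatives. In fibroblasts the ratio of Rbp4 was 0.14 (-0.17 to 0.43). In whole libraries it was -0.49 (-0.64 to -0.34), and -0.84 without lung-like cells.

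In fibroblasts 2 of 6 genes were past 2-fold, against 10.7% of all genes. Cyp26a1 was higher at P1 by a log2 ratio of 3.54 (2.52 to 4.91), from 45 UMIs against 8, and Crabp1 was higher at P7, at -2.40 (-3.64 to -1.50). Over the alternatives the Cyp26a1 ratio ranged from 2.26 to 5.51, and the Crabp1 ratio was -0.72 after thinning. At P7 Crabp1 lay mostly in Pi16 cells, at 5.04 CPM (4.13 to 6.10). At P1 Pi16 cells had 0.649 CPM (0.016 to 3.62) of it, from 1 UMI. Col26a1 cells, some of them counted with Pi16 as well, held 34 Crabp1 UMIs at P7. Of the 45 Cyp26a1 UMIs at P1, 37 lay in cells with neither Pi16 nor Col26a1. Aldh1a2 and Aldh1a1 were nearly level in fibroblasts as a class, at -0.14 (-0.19 to -0.087) and -0.12 (-0.23 to -0.0068). For Aldh1a2 the subgroups differed, with 164 CPM at P1 and 351 CPM at P7 in cells with neither Pi16 nor Col26a1. Pi16 cells had 179 and 241 CPM, and Col26a1 cells 356 and 364 CPM. Aldh1a3 was at -0.71 (-1.0 to -0.44).

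In endothelium 2 of 7 genes were past 2-fold, against 9.61% of all genes, and in smooth muscle 2 of 2, against 7.83%. In endothelium these were Aldh1a2 (-1.70, from 1.83 and 6.01 CPM) and Rbp4 (-2.58, from 0.102 and 0.747 CPM), both at or below the leukocyte level. The same ratio for Aldh1a2 in leukocytes was -1.20 (-2.11 to -0.40). In smooth muscle they were Aldh1a2 (-1.91, from 2.10 and 8.74 CPM), again not above leukocytes, and Aldh1a1 (-1.06, from 4.20 and 9.20 CPM, or 8 and 40 UMIs), whose ratio was -0.061 when cells passing the gates of several classes were kept. Without lung-like cells the Aldh1a1 ratio in smooth muscle was -0.86 (-2.24 to 0.19), under 2-fold. In endothelium the Aldh1a1 ratio was 0.17 (-0.42 to 0.75) with all gated cells and -0.91 (-1.74 to -0.18) without lung-like cells. The ratio of Aldh1a2 in smooth muscle changed sign under other gates. In the epicardium 0 of 3 genes were past 2-fold, against 10.3% of all genes, but without lung-like cells Rbp4 was past it, at -1.33. With 1 library per age no gene of the 9 could be tested there.

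The other genes of the pathway were taken as a list of 32 enzymes and carriers and 6 receptors. No value of this list, epicardial values included, was obtained without lung-like cells. Of the enzymes and carriers, 19 had at least 20 UMIs, with a median log2 ratio of 0.35 against 0.0041 over all genes. Past 2-fold, 6 of the 19 were higher at P1 and 0 higher at P7, against 8.88% and 4.07% of all genes. The 6 were Aldh1a7 (2.65), the neighbour of Aldh1a1, Dhrs9 (2.13), a retinol dehydrogenase found mainly in leukocytes and epicardium, Rbp2 (1.95), a retinol binding protein, Lrat (1.88), which stores retinol as esters, Rbp7 (1.46), a retinol binding protein of endothelium, and Adh1 (1.14), an alcohol dehydrogenase that oxidises retinol. Rbp2, Dhrs9, Lrat and Aldh1a7 rested on 101, 63, 62 and 160 UMIs in both libraries together.

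Endothelium held carriers of this list, although its levels of the 3 synthesis genes did not exceed those of leukocytes beyond the intervals. Rbp7 had 2001 CPM (1982 to 2021) in endothelium at P1 and 768 CPM (758 to 778) at P7, and reached 3334 CPM in Car4 capillary cells at P1. Fabp5, which binds fatty acids and retinoic acid, had 4121 and 2784 CPM in endothelium but was not particular to it. The epicardium had 1653 CPM at P1 and, above endothelium, 3344 CPM at P7. Smooth muscle had 1677 and 1253 CPM, fibroblasts 1248 and 271 CPM, and valve-type cells 326 and 152 CPM.

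Enzymes that act in opposite directions between retinol and retinaldehyde overlapped in part in the classes that held them. Rdh10 and Dhrs3 were named after their values were seen, and neither was past 2-fold in whole libraries. Rdh10, which oxidises retinol to retinaldehyde, had 34.1 and 29.1 CPM in fibroblasts, 33.3 and 38.1 CPM in the epicardium and 37.5 and 22.3 CPM in Gdf10 fibroblasts, against 6.57 and 6.39 CPM in endothelium. In leukocytes it was at 8.74 and 21.8 CPM. Dhrs3, which reduces retinaldehyde back to retinol, had 100.1 and 119.8 CPM in endothelium and 12.6 and 15.8 CPM in fibroblasts. Dhrs3 was also at 79.6 and 89.2 CPM in leukocytes, 71.9 and 85.1 CPM in smooth muscle, 51.1 and 56.9 CPM in valve-type cells and 44.5 and 39.2 CPM in Gdf10 fibroblasts. In the epicardium it had 34.6 CPM at P1 and 8.96 CPM at P7, a log2 ratio of 1.81 (0.42 to 3.93) from 26 and 4 UMIs. Other ratios past 2-fold were those of Dhrs3 in pericytes (-1.36) and Rdh10 in leukocytes (-1.30).

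None of the 6 receptor genes was past 2-fold in whole libraries, and their median log2 ratio was 0.033. Rarb, also named after its values were seen and known as a target of retinoic acid, had its highest level among the 6 classes in valve-type cells, with 22.6 CPM at P1 and 13.2 CPM at P7, a log2 ratio of 0.76 (0.11 to 1.49). At both ages its interval in valve-type cells overlapped with that of smooth muscle, which had 13.6 CPM at P1 from 26 UMIs. At P7 these intervals were 8.52 to 19.4 and 8.54 to 15.2. Fibroblasts (10.1 CPM), Gdf10 fibroblasts (8.13 CPM) and the epicardium (6.72 CPM, from 3 UMIs) overlapped with valve-type cells at P7 as well. Which class was highest for Rarb was thus not resolved at either age. Rarg had 41.9 and 53.7 CPM in valve-type cells and 40.6 and 44.0 CPM in endothelium. Valve-type cells as a class thus held Aldh1a1, Cyp26a1, Crabp1 and receptor transcripts. Whether single valve-type cells held Crabp1 or a receptor with the other genes was not counted.

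The 3 genes with the most similar pattern were taken for each of the other members with enough UMIs, over the same 12 points. For Aldh1a2 they were Scd1 (r = 0.98), a fatty acid desaturase, AW551984 (0.97) and Ddb1 (0.96). For Aldh1a1 they were Aldh7a1 (0.97), another aldehyde dehydrogenase, Tspan31 (0.97) and Timp2 (0.97), an inhibitor of matrix proteases. Ano4 (0.97), Bcat1 (0.95) and Lrrc36 (0.95) came closest to Aldh1a3, and Nnat (0.96), L3hypdh (0.94) and Col4a4 (0.94), a basement membrane collagen, to Rbp4. Cyp26b1 had lower values, with Nrg1 (0.91), the neuregulin gene, Wwtr1 (0.88) and Fat4 (0.88). For Crabp1 they were Arl16, Prg4, the lubricin gene of joints, and Ucma (0.93 each), and Ucma was thus named for both Cyp26a1 and Crabp1.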

How the data were processed

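Live cells from P1 and P7 mouse hearts were profiled with 1 library of 3 pooled hearts per age. The authors aligned the reads to mm10/GRCm38 (Cell Ranger 3.1.0 in the submitters' processing notes) and deposited, per library, UMI counts per gene and barcode without normalisation, barcodes with few genes included. No column was left unused.

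Barcodes with 200 to 8000 genes and at most 20% mitochondrial UMIs were kept (4991 of 7836 at P1, 8511 of 9077 at P7). Cells were gated on at least 2 UMIs of the marker (1 each for Fmod and Scx). Cells passing gates of 2 lineages were set aside, and no doublet caller was run. Lung-like cells had 2 of 7 alveolar genes or any UMI of Hoxa5, Foxf1, Tbx4 or Nkx2-1. UMIs were summed per class and scaled to CPM, with exact Poisson, conditional binomial and Clopper-Pearson 95% intervals and, for a sum of 0, a limit of 3 counts. These intervals and limits cover counting error only. P1 was compared with P7 as a log2 ratio with 0.5 counts added, for genes with at least 20 UMIs. Cells with under 2000 UMIs (574 at P1, 727 at P7) did not enter the thinned values. Functions were tested on simulated data (python 3.11.15, numpy 2.4.6, scipy 1.17.1, pandas 2.3.3, matplotlib 3.10.9). Gene positions are from GENCODE M21.

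The 9 genes and the lists were chosen with earlier results of these data known. The genes named are the 9, those of the pathway list past 2-fold in whole libraries or with the highest CPM in a class, and for each member with at least 100 UMIs the 3 of most similar pattern (Pearson r of log2(CPM + 1)). Rdh10, Dhrs3, Rarb, Rarg and Wnt9b were added after their values were seen. Alternatives varied the mitochondrial limit, gates, weighting, depth, scaling, lung-like cells, minimum UMIs and fold. The sample integration and clustering of the study were not repeated. Results of some genes and gates are not reported here.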

Additional observations from a re-analysis of the deposited data

Results flagged for a closer look

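With the gates as reported, Cyp26a1 differed in direction between 2 classes. Its log2 ratio of P1 over P7 was 3.54 in fibroblasts (45 UMIs at P1, 8 at P7) and -0.24 in valve-type cells (839 and 558 UMIs), and both counting intervals lay off 0. With gates of at least 3 UMIs, valve-type cells had 356 CPM at P1 and 363 CPM at P7. These levels were nearly equal, so the direction in valve-type cells depended on the gate. The difference between the classes was not tested, since there was 1 library per age. In fibroblasts no cell held more than 11 of the 45 UMIs at P1, and UMIs were found in 1.45% of cells at P1 and 0.313% at P7.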

How the results depend on the processing

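No paired analysis was possible because each age was 1 library and the labels give no replicate numbers, and for the same reason no replicate could be left out in turn. Of the 4 genes past 2-fold in whole libraries, 2 remained countable and past it after thinning to 2000 UMIs, as Crabp2 and Stra6 then had under 20 UMIs. The 8 pairs of gene and class past 2-fold became 3 after thinning and 5 with at least 50 summed UMIs, both settings that count fewer pairs. After thinning, 5 of the 9 genes kept their highest class at P7, whereas Aldh1a1, Aldh1a3 and Rbp4 were then highest in the epicardium and Crabp2 in smooth muscle, on at most 12 UMIs each. Aldh1a2 in smooth muscle turned from -1.91 to 0.23 with gates of at least 1 UMI and to 0.32 with overlapping gates kept. The cause was not tested. Under the other planned settings the counts were 3 to 4 and 7 to 12. Of 37 log2 ratios, those that stayed within their counting interval were 37 with a mitochondrial limit of 10%, 37 without that limit, 37 when scaled without mitochondrial and haemoglobin genes, 33 with gates of at least 1 UMI, 32 with gates of at least 3, 30 with overlapping gates, 30 as means of per-cell CPM, 33 without the 5% of cells with the most UMIs, 32 without lung-like cells and 22 after thinning. The ratio of Crabp1 in whole libraries, -0.30 (-0.67 to 0.051), ranged from -0.53 to 0.50 over the planned settings and was -1.40 with P1 classes weighted as at P7. Crabp2, Stra6 and the epicardium of P7, with 42 UMIs, 10 UMIs and 30 cells, set the limits of depth.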

Other observations

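Some values lay outside the classes compared. The 39 alveolar-like cells of P1 had 129 CPM of Aldh1a2 (36 UMIs) and 104 CPM of Aldh1a1 (29 UMIs), of which 1 cell held 25, and no such cell was found at P7. Among the cells set aside for passing gates of 2 lineages, Cyp26a1 had 56 UMIs in 81 cells at P1 and 4 UMIs in 194 cells at P7, and Cyp26b1 22 and 6 UMIs. Of the 10 Stra6 UMIs of P7, 5 were in cells set aside. Cells outside all gates had 107 CPM of Aldh1a2 at P1 and 192 CPM at P7, with a median depth of 3301 and 6132 UMIs.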
